A study of Homo sapiens with 18 samples.

Results

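CEBPA, CEBPB, CEBPD, CEBPE, SPI1, GFI1, RUNX1, MYB, KLF4 and GATA2 encode transcription factors of the myeloid lineage, and the positions of linker histones H1.2 and H1.5 along these 10 genes were read from merged peak lists of HL-60/S4 cells. The genes were chosen by symbol as regulators of myeloid development and not by their peaks, although earlier results of these data were known. They were set against all 20098 protein-coding genes of chromosomes 1 to 22 and X. HL-60/S4 is an established human myeloid leukemia cell line, the only line mapped, and the cells were undifferentiated and fixed with formaldehyde. The 18 samples held 12 immunoprecipitated samples, with 3 replicates for each pairing of a protocol (xChIP or xxChIP) with an antibody (against H1.2 or H1.5), together with 6 Input samples, left aside here. In xChIP the fixed cells were sonicated and the antibody met the sheared chromatin. In xxChIP the antibody entered permeabilized fixed cells, a further fixation held it in place, and sonication came last, so that an epitope buried in the fixed nucleus can stay unreached. The 3 replicates of a pairing had been merged into 1 list of peak positions before deposit, without a score, a height or a read number. The depth is therefore unknown, no spread between replicates could be computed, and the comparisons below describe 4 merged lists without a test or p-value. The xChIP lists held 142926 (H1.2) and 139938 (H1.5) peaks over 26.4% and 16.3% of the known genome. The xxChIP lists held 143193 (H1.2) and 138491 (H1.5) peaks over 20.2% and 17.2% of it.

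Linker histone H1 sits where DNA enters and leaves the nucleosome and helps to fold the chromatin fiber. H1.2 and H1.5 are somatic isotypes that share a globular domain and differ mostly in their tails. Myeloid transcription factors act as a network: RUNX1, MYB and GATA2 keep stem and progenitor cells going, SPI1 (PU.1) and the C/EBP proteins push progenitors toward monocytes and granulocytes, CEBPE and GFI1 are needed for late granulocyte maturation, and KLF4 favors monocytes. Several of these genes are controlled by distant enhancers, so the 50 kb on both sides of the start were read along with the promoter and the gene body.

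In what follows the start (TSS) is the 5′ end of the gene in GENCODE, the promoter is the stretch within 1000 bp of the start, and the flank is the stretch within 50 kb of it. A promoter counted as touched when it shared at least 1 bp with a peak. Because GC content varies between these loci, from 40.2% in the flank of MYB to 54.5% in that of SPI1, each gene was also read beside the protein-coding genes whose flank GC lay within 1 percentage point of its own. There were between 849 such genes (for SPI1) and 2877 (for MYB). RUNX1 needed care: its annotated gene spans 1216868 bp because a single long transcript starts at position 37376965 of chromosome 21, whereas the canonical transcript starts at 36421599. Values for RUNX1 refer to the gene start unless the canonical start is named. The canonical start lies 1001 bp inside the gene start for CEBPE and 713 bp inside it for KLF4, and is the gene start itself for the other members.

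The promoters differ strongly in their CpG content, and stretches just upstream of the CEBPA and CEBPE gene starts show its extremes at the gene starts. Both are from GRCh37 (hg19), on the minus strand, 5′ to 3′ up to the base before the start, with each CpG in capitals. The CEBPA stretch, chr19:33793441-33793640, has 33 CpG in 200 bases and touched no peak of any list.
CEBPA: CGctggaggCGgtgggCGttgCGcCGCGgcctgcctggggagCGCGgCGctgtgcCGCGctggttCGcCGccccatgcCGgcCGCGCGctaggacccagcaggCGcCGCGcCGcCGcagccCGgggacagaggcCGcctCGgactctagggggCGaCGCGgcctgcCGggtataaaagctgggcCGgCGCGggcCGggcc
The CEBPE stretch, chr14:23589466-23589665, has no CpG in the same length and lay inside an xChIP H1.2 peak.
CEBPE: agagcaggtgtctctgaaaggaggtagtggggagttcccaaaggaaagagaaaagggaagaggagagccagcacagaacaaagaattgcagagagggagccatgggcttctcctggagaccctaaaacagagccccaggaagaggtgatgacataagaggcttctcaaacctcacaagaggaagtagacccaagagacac
Over the whole promoter, the observed/expected CpG ratio ran from 0.175 for CEBPE and 0.225 for SPI1 to 0.959 for CEBPA. The only annotated start of a protein-coding CEBPE transcript is the canonical one, 1001 bp inside the gene start. There the ratio was 0.270, above that of SPI1. In 7 of the 10 promoters the ratio was at least 0.6, against 51.9% of all promoters. H1.2 cover did not sort by this ratio: among the CpG-rich promoters CEBPB, CEBPD, KLF4 and GATA2 were covered by xChIP H1.2 and CEBPA, GFI1 and MYB were not, and among the CpG-poor ones CEBPE and SPI1 were covered and RUNX1 was not.

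The start regions asked which promoters hold H1 peaks and in which protocol. xChIP H1.2 peaks touched 6 of the 10 promoters (CEBPB, CEBPD, CEBPE, SPI1, KLF4 and GATA2), against 48.2% of all promoters. At the gene start each of these 6 was covered from end to end, which was so for 29.3% of all promoters. At the canonical start of KLF4 xChIP H1.2 covered 70.7% of the promoter. xChIP H1.5 touched 3 (CEBPD, SPI1 and KLF4), against 21.6% of all. It covered them in part, with 49.4% of the CEBPD promoter, 38.9% of the KLF4 promoter and 1.80% of the SPI1 promoter. From the canonical start of KLF4 its share was 3.25%. Neither xxChIP list touched any of the 10, against 8.78% (H1.2) and 7.92% (H1.5) of all promoters.

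Read against genes of similar flank GC, these counts of touched promoters lay near the background. Cover from end to end was not set beside genes of similar GC. Summing, over the 10 genes, the share of their GC-similar genes with a touched promoter gave 5.68 (H1.2) and 2.40 (H1.5) in xChIP, and 0.710 (H1.2) and 0.648 (H1.5) in xxChIP. A count of 0 in an xxChIP list is thus less than 1 gene below what genes of this GC content show, and it says nothing particular about myeloid regulators. An xChIP list without an xxChIP list touched 6 promoters, against 48.5% of all, and 4 promoters (CEBPA, GFI1, RUNX1 and MYB) were touched by no list, against 37.9% of all. The xChIP H1.5 count depended on the window, with 5 promoters touched within 2500 bp of the start and 0 when at least 50% of the promoter had to be covered.

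Behind the same full cover of the promoter at the gene start stood H1.2 peaks of very different extent. The KLF4 start lay in a peak of 100131 bp, chr9:110251636-110351766, which lay almost wholly upstream and stopped 1127 bp inside the gene. The CEBPB start lay in a peak of 72367 bp (chr20:48746897-48819263) and the CEBPD start in one of 71878 bp (chr8:48618144-48690021), and these short genes were covered from end to end. SPI1 was likewise covered whole, by a peak of 39083 bp, chr11:47370145-47409227. At CEBPE and GATA2 the peak over the start was short, at 5228 and 4475 bp. Long peaks over starts were common in this list: xChIP H1.2 covered 7357 gene starts (36.6%), by peaks with a median of 29534 bp, while the median of all its peaks was 2335 bp. The KLF4 peak was shorter than those over 16.8% of these starts, the CEBPB peak shorter than those over 24.2%, and the GATA2 peak shorter than those over 82.2%.

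**Figure D1:**
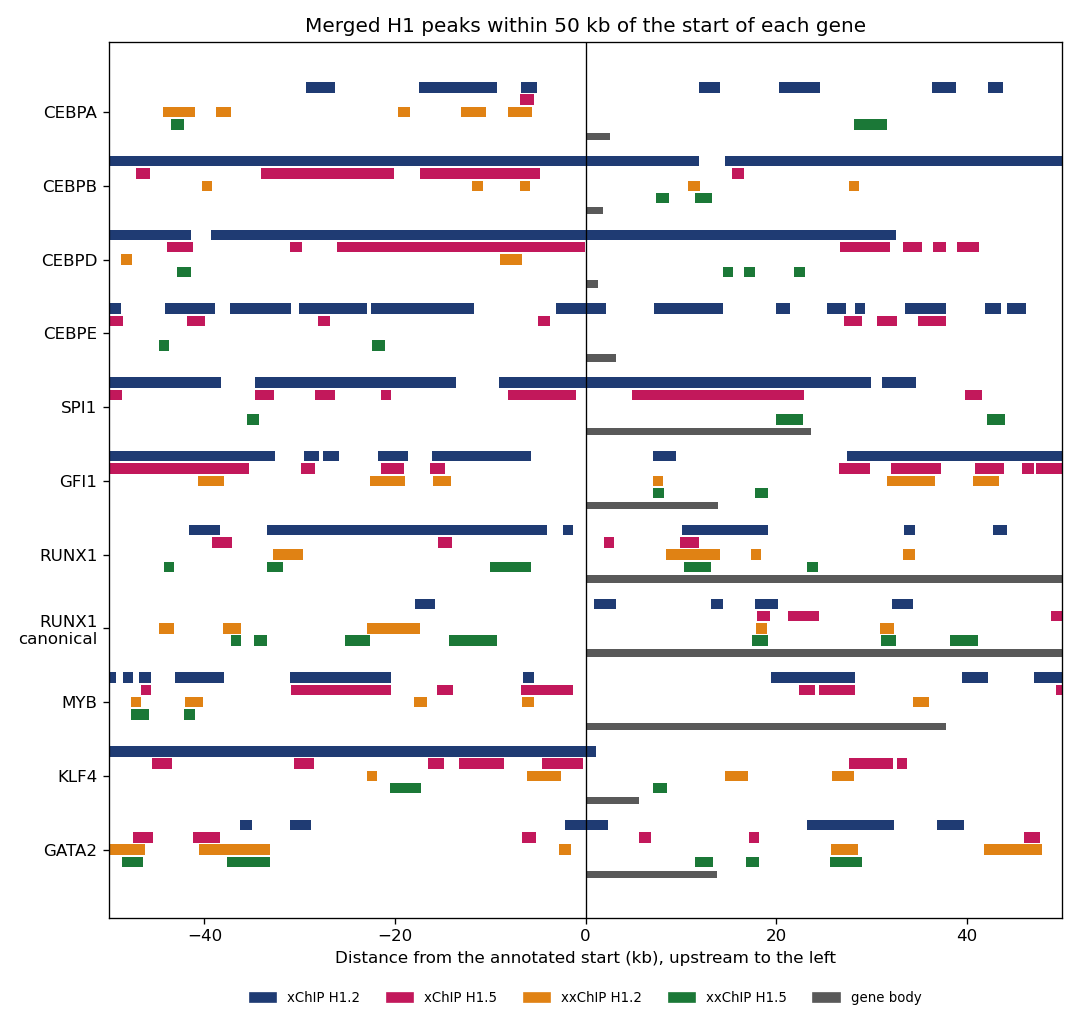
Peaks of the 4 lists within 50 kb of the start of each gene, drawn to scale in kb with upstream to the left, 1 row of bars per list and the gene body in grey. RUNX1 is drawn at the gene start and at the canonical start. The xChIP H1.2 peak at KLF4 fills the upstream side and stops 1127 bp past the start, and no xxChIP H1.2 peak stands in the CEBPE and SPI1 rows.

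At most of the 10 genes the nearest xChIP H1.5 peak stood upstream of the start. None of the 10 starts lay in an xChIP H1.5 peak, which was so for 18048 of the 20098 protein-coding genes. The nearest H1.5 peak lay upstream at 9 of the 10 genes (RUNX1 being the exception), against 53.5% of those 18048. This reading was chosen after the values were seen. At CEBPD a peak of 26090 bp ended 12 bp before the start, and the next one downstream began 26726 bp away. At KLF4 the upstream peak ended 223 bp before the start and the downstream one began 27620 bp past it. From the canonical start of KLF4 the upstream peak was 936 bp away. At SPI1 the nearest peaks were 965 bp upstream and 4831 bp downstream. MYB had its nearest H1.5 peak 1326 bp upstream and CEBPE 3720 bp upstream, with none downstream for 22386 and 27168 bp. The sides were nearly even at GATA2, with 5211 bp upstream and 5653 bp downstream. The count stayed at 9 with canonical starts and was 8 when only peaks of at least 2000 bp were kept.

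Averaged in steps of 5 kb, xChIP H1.5 covered 36.9% of the last 5 kb before the start and 2.35% of the 5 kb after it. The mean before the start came from 6 genes, with no cover at CEBPA, GFI1, RUNX1 and GATA2. The mean after it came from 2 genes. Over all protein-coding genes the same steps held 16.8% and 14.2%, so the side-to-side contrast of the 10 genes was steeper than the average. The other lists did not share this split in the same form. xChIP H1.2 had its nearest peak upstream at all 4 genes with an uncovered start, against 55.9% of such genes, and covered 54.5% of the 5 kb before the start and 41.3% of the 5 kb after it (all genes, 42.5% and 38.3%). In xxChIP it was upstream at 7 of 10 genes for H1.2, against 54.1%, and at 3 of 10 for H1.5, against 53.7%, the latter count being 6 with peaks of at least 2000 bp. In the 5 kb after the start the mean cover was 0 in both xxChIP lists, against 7.32% for H1.2 and 6.26% for H1.5 over all genes. This was not particular to that step. xxChIP H1.5 was also at 0 in the 5 kb before the start (all genes, 8.63%) and in some steps further off. xxChIP H1.2 was at 0 from 20 to 25 kb after the start as well.

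**Figure D2:**
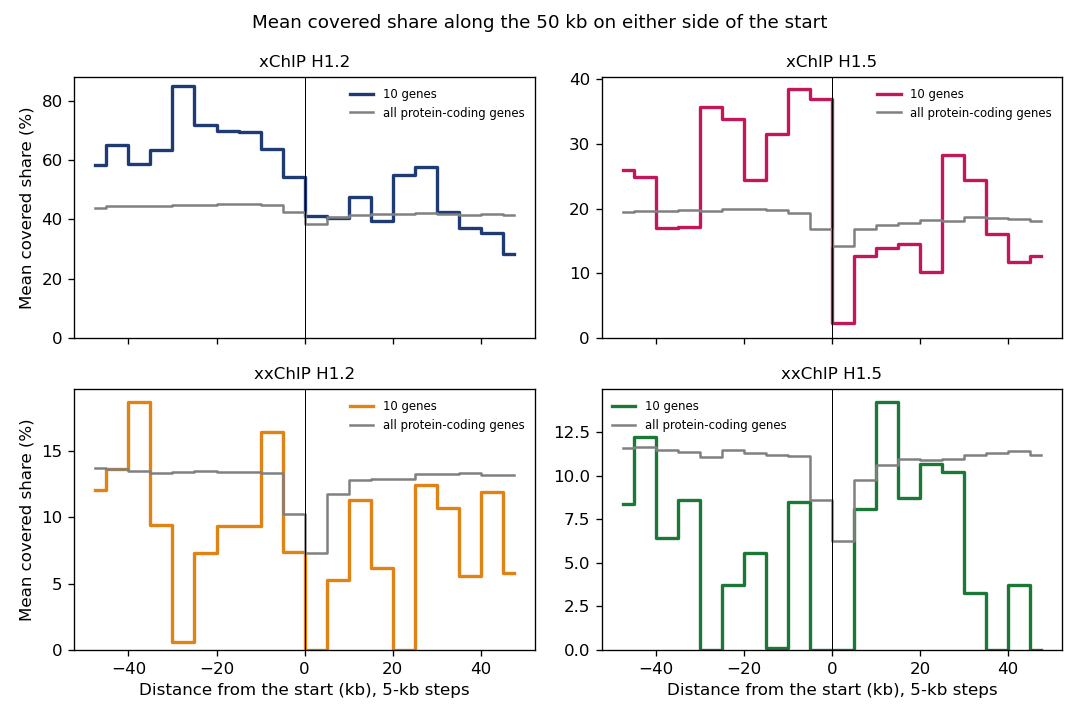
Mean share of bases covered (%, 1 panel per list, each with its own scale from 0) in 5-kb steps along the 50 kb on either side of the start, for the 10 genes (colored line) and all protein-coding genes (grey line). The xChIP H1.5 line drops from 36.9% (cover at 6 genes) to 2.35% (cover at 2 genes) at the start. Both xxChIP lines are at 0 in the 5 kb after it, and the xxChIP H1.5 line also in the 5 kb before it. With 10 genes the steps are uneven and carry no error.

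Away from the start the xxChIP lists also left long stretches empty at some of these genes. The peak-free stretch around the start had a median of 38920.5 bp (H1.2) and 57678.5 bp (H1.5) in xxChIP (all genes, 33993.5 and 39878 bp). No xxChIP H1.2 peak lay within 50 kb of CEBPE or SPI1, where the peak-free stretch was 120359 and 151178 bp. Those stretches were longer than at 91.0% and 85.8% of genes of similar GC. CEBPA had 118311 bp without an xxChIP H1.2 peak, nearly all of it downstream, and MYB had 114979 bp without an xxChIP H1.5 peak, longer than at 97.6% of genes of similar GC. At KLF4 the stretches were short, with 17259 and 24264 bp for xxChIP H1.2 and H1.5, longer than at 24.3% and 30.0% of genes of similar GC. CEBPB had 16619 bp for xxChIP H1.2, longer than at 9.45% of such genes. RUNX1 had 16123 bp for xxChIP H1.5, longer than at 18.6%. Beside genes of similar GC the stretches were thus longer at some of the 10 genes and shorter at others.

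The flank values asked whether H1 peaks cover more or less of the surroundings of these genes than of other genes with a similar GC content. The median over the 10 flanks was 53.5% for xChIP H1.2, against 36.3% over all protein-coding genes and 45.8% for the median of the GC-similar medians. For xChIP H1.5 it was 22.8%, against 15.4% and 15.8%. In xxChIP the H1.2 median was 8.43%, against 9.81% and 8.40%, and the H1.5 median 4.81%, against 7.72% and 6.36%. Both xChIP medians thus lay above both backgrounds, and the xxChIP H1.5 median below both, in this window. Within 25 kb of the start the xChIP H1.5 median was 15.2%, but the background medians given here belong to the 50-kb window only. The xChIP H1.2 share was above the GC-similar median at 8 of the 10 genes, with CEBPA and GATA2 below. By construction 49.9% of all genes are above. That number was 7 within 100 kb of the start and 7 without the restriction on GC. With canonical starts it was also 7, RUNX1 having 10.1% against a GC-similar median of 29.7%. The count was 6 for H1.5 in xChIP (50% of all genes), and in xxChIP it was 6 for H1.2 (49.9%) and 4 for H1.5 (49.9%). Within 25 kb the xChIP H1.5 count was 5 and the xxChIP H1.5 count 6. The xxChIP H1.2 count was 3 within 100 kb of the start, and the xxChIP H1.5 count was 2 without the restriction on GC. The direction of the xxChIP counts thus rested on the window and the comparison genes. Any excess in the xChIP H1.5 count rested on the window. Within 100 kb this count was 8 and the xChIP H1.5 median 24.5%, and without the restriction on GC the count stayed at 6.

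**Figure D3:**
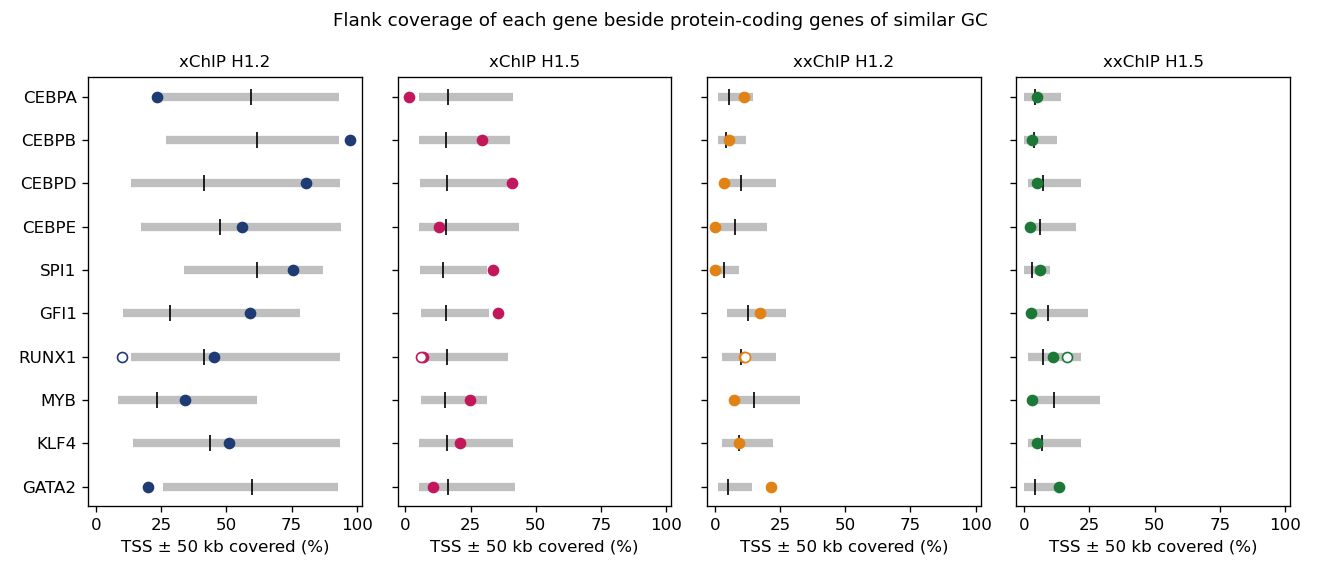
Share of the flank (TSS ± 50 kb) covered by peaks (%, colored points, 1 panel per list) for each gene, beside the range from the 10 to the 90 percentile (grey bar) and the median (black tick) of protein-coding genes of similar GC. Open circles give RUNX1 at its canonical start, and the grey bar of that row belongs to the gene start. CEBPB (97.3%) lies above the grey bar for xChIP H1.2, CEBPA (23.3%) and GATA2 (19.9%) below it, and GATA2 (21.4%) above it for xxChIP H1.2.

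Within the C/EBP family, whose members bind the same DNA motif as dimers, the surroundings ranged from almost full to sparse. CEBPB (chr20:48807367-48809205, plus strand), which is induced in inflammation and emergency granulopoiesis, had 97.3% (H1.2) and 29.2% (H1.5) of its flank in xChIP peaks, and 5.51% (H1.2) and 3.11% (H1.5) in xxChIP peaks. The H1.2 value was higher than at 95.8% of genes of similar GC, and 1.31% of the flank lay in no peak at all. CEBPD (chr8:48649475-48650726, minus strand), an acute-phase regulator, had 80.5%, 41.0%, 3.44% and 4.99% in the same order. Its xChIP H1.5 share was the highest of the 10 and above that of 91.1% of genes of similar GC, and none of its flank was covered by xxChIP peaks alone. CEBPE (chr14:23586245-23589465, minus strand), which is needed for the secondary granules of neutrophils, had 55.9%, 12.9%, 0% and 2.34%. In these 3 genes the xChIP H1.2 share was above the GC-similar median (61.7%, 41.2% and 47.7%), and the xxChIP H1.5 share was below it (3.83%, 7.04% and 5.92%). The xxChIP H1.2 share of CEBPB was above its median of 4.30%, and those of CEBPD and CEBPE were below theirs.

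CEBPA (chr19:33790840-33793440, minus strand), the regulator that commits progenitors to the granulocyte path and a gene often mutated in acute myeloid leukemia, stood apart from CEBPB, CEBPD and CEBPE. Its flank was covered to 23.3% (H1.2) and 1.53% (H1.5) in xChIP, and to 11.3% (H1.2) and 4.79% (H1.5) in xxChIP. The H1.2 share in xChIP was below that of all but 9.06% of genes of similar GC, and the H1.5 share, made of a single peak of 1533 bp, below that of all but 1.23%. In xxChIP H1.2 the order turned, with a share above that of 82.6% of genes of similar GC. That single H1.5 peak, chr19:33798806-33800338, overlapped an xChIP H1.2 peak at chr19:33798590-33800236 and an xxChIP H1.2 peak at chr19:33799099-33801550, so 3 of the 4 lists overlapped there. The peak nearest to the start, from xChIP H1.2, was 5150 bp away, and 65.8% of the flank was in no peak.

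SPI1 (chr11:47376411-47400098, minus strand) encodes PU.1, the ETS factor required for monocytes, granulocytes and B cells. Its flank was covered to 75.5% (H1.2) and 33.6% (H1.5) in xChIP, and to 0% (H1.2) and 5.98% (H1.5) in xxChIP. The xChIP H1.5 share was above that of 91.3% of genes of similar GC, and a peak of 18096 bp covered most of the gene downstream of the start. GFI1, a zinc-finger repressor needed for neutrophils (chr1:92938600-92952482, minus strand), had 59.2%, 35.6%, 17.2% and 2.59%. Its xChIP H1.5 share was above that of 93.2% of genes of similar GC, while its xxChIP H1.5 share was below that of all but 9.25%. Both flanks were therefore rich in xChIP H1.5 peaks, and they differed in xxChIP H1.2. No xChIP H1.5 peak lay in the promoter or body of GFI1, and the nearest was 14786 bp from its start.

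Among the regulators of progenitors, MYB (chr6:135502446-135540311, plus strand), which keeps immature cells dividing, had 34.3% of its flank in xChIP H1.2, 24.7% in xChIP H1.5, 7.41% in xxChIP H1.2 and 3.15% in xxChIP H1.5. Both xChIP shares were above the GC-similar medians of 23.4% and 15.3%, and both xxChIP shares were below those of 15.0% and 11.5%. GATA2 (chr3:128198270-128212044, minus strand), the zinc-finger factor of stem and mast cells, showed the opposite order, with 19.9%, 10.5%, 21.4% and 13.4%. Its xChIP H1.2 share was below that of all but 4.88% of genes of similar GC. Its xxChIP H1.2 share was above that of 97.1% of them, and its xxChIP H1.5 share above that of 89.7%. At the gene start GATA2 was the only one of the 10 whose flank was covered more by xxChIP H1.2 than by xChIP H1.2.

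The GATA2 promoter nevertheless lay within an xChIP H1.2 peak, chr3:128209710-128214184, and an xxChIP H1.2 peak, chr3:128213598-128214874, overlapped the upstream end of that peak. Its nearest edge was 1554 bp before the start, the closest approach of an xxChIP peak to any of the 10 gene starts. Further upstream, xxChIP peaks of both isotypes overlapped, with an H1.2 peak of 7482 bp (chr3:128245118-128252599) and an H1.5 peak of 4570 bp (chr3:128245149-128249718). KLF4 (chr9:110247133-110252763, minus strand), a Krüppel-like factor of monocytes, had 51.1% (H1.2) and 20.8% (H1.5) of its flank covered in xChIP, and 9.44% (H1.2) and 4.83% (H1.5) in xxChIP. These shares lay near the GC-similar medians of 43.9%, 15.9%, 9.15% and 6.81%. What set KLF4 apart was position, since its H1.2 share came from 1 peak on the upstream side.

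RUNX1 (chr21:36160098-37376965, minus strand), the Runt factor needed for blood stem cells to form, gave different pictures at its starts. At the gene start the flank was covered to 45.3% (H1.2) and 6.59% (H1.5) in xChIP, and to 11.1% (H1.2) and 11.01% (H1.5) in xxChIP. At the canonical start, which belongs to a group of starts 955324 bp into the gene, the shares were 10.1%, 5.86%, 11.6% and 16.4% in the same order. There the xChIP H1.2 share was below that of all but 9.47% of genes of similar GC and the xxChIP H1.5 share above that of 76.4%. The canonical promoter was touched at its edge by xChIP H1.2, over 3.65% of its length, and by no other list. Around the internal starts at 36262087, 36260987 and 36259480 the nearest peak of the 4 lists was 8264 bp away. With the canonical start, RUNX1 therefore joined GATA2 as a gene whose flank was covered more by xxChIP H1.2 than by xChIP H1.2.

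**Figure D4:**
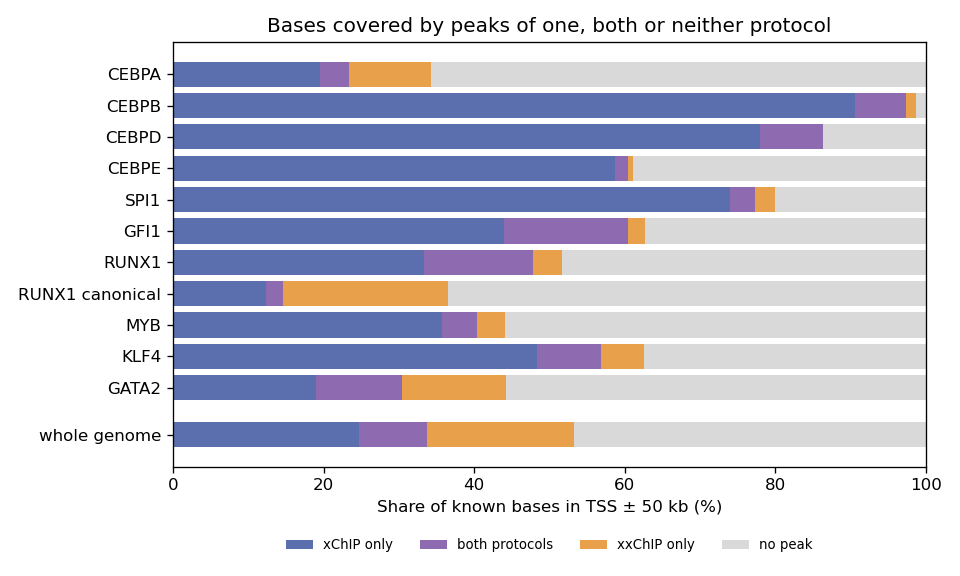
Share of the known bases of each flank (TSS ± 50 kb, %) covered by xChIP peaks only, by peaks of both protocols, by xxChIP peaks only and by no peak, with H1.2 and H1.5 joined, beside the whole genome. At the gene starts the xChIP-only part runs from 19.1% at GATA2 to 90.5% at CEBPB, and for RUNX1 at its canonical start it is 12.4%. The xxChIP-only part is 0% at CEBPD and 21.9% at RUNX1 taken at its canonical start.

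With the isotypes joined, the bases covered by xChIP alone had a median of 46.2% over the 10 flanks, against 34.0% over all protein-coding genes and 24.7% of the genome. Bases covered by xxChIP alone had a median of 3.25%, against 6.64% over all genes and 19.5% of the genome. Bases in peaks of both protocols had a median of 7.59%, against 7.17%, and bases in no peak 38.2%, against 43.4%. The flanks of protein-coding genes as a whole thus already held more xChIP-only and less xxChIP-only sequence than the genome. The 10 genes lay further in the same direction at the median, with CEBPA and GATA2 on the other side in both.

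To compare the lists with each other, each share was divided by the share of the genome that the list covers. On this scale xChIP H1.2 exceeded xxChIP H1.2 at 9 of the 10 genes (not at GATA2), against 73.4% of all genes. xChIP H1.5 exceeded xxChIP H1.5 at 7 (not at CEBPA, RUNX1 and GATA2), against 71.2%. Within xChIP, H1.2 exceeded H1.5 at 9 genes, against 66.4%, and MYB was the exception with 1.30 times the genome share for H1.2 and 1.52 times for H1.5. Within xxChIP, H1.2 exceeded H1.5 at 6 genes, against 52.3%. Most of these counts lay near or somewhat above the share over all genes. CEBPB had the largest difference between the H1.2 lists, with 3.69 times the genome share in xChIP H1.2 and 0.273 times in xxChIP H1.2. At GATA2 these values were 0.755 and 1.06.

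The gene bodies asked whether H1 peaks follow the transcribed stretch. Most of these bodies are short, from 1252 bp for CEBPD to 37866 bp for MYB, with RUNX1 the exception. The body of CEBPA lay in no peak of any list. Those of CEBPB, CEBPD and SPI1 were covered whole by xChIP H1.2. Intermediate shares for that list were 67.4% for CEBPE, 23.3% for MYB, 20.0% for KLF4, 17.7% for GFI1, 17.0% for GATA2 and 13.5% for RUNX1. xChIP H1.5 was present in the bodies of SPI1 (76.4%), MYB (14.3%), RUNX1 (11.6%) and GATA2 (9.13%) and absent from the other 6. The SPI1 body thus held xChIP peaks of both isotypes, at an H1.5 share above that of 97.8% of genes of similar GC. In xxChIP H1.2 the body shares were 12.6% for RUNX1, 7.90% for GFI1 and 4.62% for MYB, and in xxChIP H1.5 they were 14.1% for GATA2, 12.0% for SPI1, 8.86% for RUNX1 and 8.44% for GFI1. The remaining xxChIP body values were 0.

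The median body share was 21.7% for xChIP H1.2 (all genes, 26.4%) and 0 for the other lists (all genes, 10.3% in xChIP H1.5, and 5.90% and 4.30% in xxChIP H1.2 and H1.5). Beside genes of similar GC, 5 bodies were above the median for xChIP H1.2 (50% of all genes), 3 for H1.5 in xChIP (49.9%), and in xxChIP 1 for H1.2 (45.8%) and 4 for H1.5 (45.4%). The xxChIP H1.2 count rests on RUNX1, and was 0 without it. Short bodies can fall between peaks or inside a single peak, so a share of 0 or 100% was frequent and the medians of short genes are coarse.

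The 10 genes have 26 annotated starts of protein-coding transcripts once starts within 500 bp are joined, and the additional starts changed the xxChIP picture at GFI1 and GATA2. The start of GFI1 that lies 6440 bp inside the gene had 20.5% of its promoter window in xChIP H1.2, 19.9% in xxChIP H1.2 and 20.2% in xxChIP H1.5. The last start of GATA2, 11257 bp inside the gene, had 39.4% in xxChIP H1.5 and no other peak. The remaining starts were touched by no xxChIP peak. Along GATA2 the xChIP H1.2 cover went from 100% at the gene start and at the start 1294 bp inside, to 39.1% at 2553 bp and 0% from 4167 bp on. xChIP H1.5 appeared over 0.950% of the window at 4671 bp and 31.6% at 5285 bp. That H1.5 peak lay over no GATA2 start and was 368 bp from the nearest of them. At MYB no list touched either start.

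Other protein-coding genes whose bodies reach within 50 kb of these starts were read as part of the same surroundings. CEBPA, MYB and KLF4 have none. Near SPI1 the promoters of MYBPC3, SLC39A13 and PSMC3 were fully covered by xChIP H1.2 and free of xxChIP peaks, as was the SPI1 promoter, and so was that of MADD, whose start lies further off, at 109386 bp. Near CEBPB the promoters of PEDS1 and of the read-through gene PEDS1-UBE2V1 were also fully covered by xChIP H1.2. Around CEBPE the promoters of ACIN1, C14orf119, CIROP and SLC7A8 were covered only in part, by 16.4%, 21.9%, 10.2% and 49.5%, the SLC7A8 start being 63418 bp away. DNAJB8, which encodes a chaperone and lies 26233 bp from the GATA2 start, had a promoter covered by 100% in xChIP H1.2, 74.0% in xxChIP H1.2 and 78.4% in xxChIP H1.5. It was the only one of these neighbors with xxChIP cover at its promoter.

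Further transcription factor genes of blood cells, in lists chosen by lineage, were counted in the same way. Of 13 relatives of the 10 genes, such as GATA1, RUNX3 and KLF2, xChIP H1.2 touched 7 promoters and xChIP H1.5 touched 1, where genes of similar GC would give 7.02 and 2.99. Of 11 other myeloid regulators, such as IRF8, EGR1 and STAT3, the counts were 3 and 2, where similar genes would give 5.73 and 2.49. All 5 erythroid and megakaryocytic genes (GATA1, KLF1, TAL1, NFE2 and GFI1B) were touched by xChIP H1.2, where similar genes would give 3.03, and 3 of 10 lymphoid genes were, where similar genes would give 5.30. Over the 36 different genes of these lists each xxChIP list touched 1 promoter, that of the B-cell factor EBF1, which was covered by 100% in xxChIP H1.2 and 69.5% in xxChIP H1.5. Of all promoters, 8.78% (H1.2) and 7.92% (H1.5) were touched in xxChIP. For xxChIP H1.2, genes of similar GC would give 1.02 among the relatives and 0.889 among the other myeloid genes. They would give 0.330 among the erythroid and megakaryocytic and 0.778 among the lymphoid genes. For xxChIP H1.5 the values in the same order were 0.991, 0.835, 0.358 and 0.689. Untouched promoters in xxChIP were thus the rule among all genes and not particular to the 10 or to these lists.

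The flanks of these lists also differed in level. The median xChIP H1.2 share was 49.5% for the relatives, 49.5% for the erythroid and megakaryocytic genes, 25.3% for the lymphoid genes and 18.7% for the other myeloid genes, beside 53.5% for the 10 genes. Above the GC-similar median for that list were 7 of 13, 3 of 5, 1 of 10 and 2 of 11, against 49.9% of all genes. Low values among the other myeloid genes were 9.44% for ERG and 14.0% for IRF8, and high ones 89.6% for STAT3 and 65.1% for EGR1. The xChIP H1.2 median was therefore lower at these 11 other myeloid genes than at the 10. Sparse flanks occurred among the 10 as well, at CEBPA (23.3%) and GATA2 (19.9%). GFI1B and GATA1 are in both the relatives and the erythroid list, and GATA3 in both the relatives and the lymphoid list.

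For each of the 10 genes, the protein-coding gene with the most similar body and flank shares in the 4 lists (8 values, Euclidean distance in percentage points, over 1 Mb away or on another chromosome) was found. The closest pair was CEBPB with the ribosomal protein gene RPL36AL, at a distance of 2.09 points. CEBPE was nearest to ZNF205 (4.82), CEBPD to CUTA (5.05), CEBPA to AGPAT5 (5.07), KLF4 to CDPF1 (5.55), MYB to CLINT1 (5.56), RUNX1 to ANKH (6.79) and GATA2 to ASAH2 (8.09). GFI1 was nearest to RHBG at 10.5 points. SPI1 had the least similar neighbor in this sense, BBS1 at 13.3 points.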

How the data were processed

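Linker histone isotypes H1.2 and H1.5 had been profiled by xChIP-seq and xxChIP-seq in HL-60/S4 cells. The authors sequenced on a HiSeq 2000, aligned to hg19 with Bowtie2, used reads that map uniquely, called peaks with MUSIC at default settings and merged the 3 replicates of each condition. The deposited values are positions (chromosome, start and end) without counts or scores, so depth is unknown and no interval was computed. Merging can lengthen peaks, and nothing in the lists tells how many replicates hold a peak. Samples were grouped by their titles. Covered shares of promoter, gene body and flank were computed over known bases of GRCh37 (2835.7 Mb) with genes of GENCODE 44 lifted to that build, with Python 3.11.15, numpy 2.4.6 and matplotlib 3.10.9, and checked on simulated data. The 10 genes, their neighbors within 50 kb, the listed transcription factor genes and the most similar gene of each may be named. Members, lists and alternatives were chosen with earlier results of these data known. Inputs, reads and expression were not analysed here. Of the listed transcription factor genes, 1 is not reported here and was left out of the counts. Promoter sequences came from the GRCh37 genome. The alternatives changed window widths, the overlap rule, the peak length, the start, the GC comparison and the scaling by genome share.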

Additional observations from a re-analysis of the deposited data

How the results depend on the processing

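Of 124 alternative values, 112 stayed within 1.5 times the main value. Some of these could not move: a count of 0 stays at 0 with a narrower window, a stricter overlap or fewer peaks or genes. A median of 0 likewise stays at 0 with fewer peaks. The 12 that moved were 10 small counts and 2 medians. Promoters touched by xChIP H1.5 went from 3 to 5 within 2500 bp of the start and to 0 when at least 50% had to be covered, and xxChIP H1.2 went from 0 to 1 within 2500 bp. With peaks of at least 2000 bp the flank median in xxChIP became 5.33% (H1.2) and 1.42% (H1.5). The number of flanks above genes of similar GC became, in xxChIP, 3 for H1.2 within 100 kb and 2 for H1.5 without the GC restriction. For bodies the xxChIP H1.2 number became 2 with the GC of the body itself, 2 without the GC restriction and 0 without RUNX1, and the xxChIP H1.5 number became 2 with peaks of at least 2000 bp. With that same minimum, 6 genes had their nearest xxChIP H1.5 peak upstream instead of 3. The cause of these shifts was not tested, apart from the omission of RUNX1 and of short peaks, which follow from fewer genes or peaks. The omission of RUNX1, the side of the nearest peak, the canonical gene body and the canonical start for the numbers above genes of similar GC were chosen after seeing the data. For flanks, the GC of the window is the main setting, so it gave no further value.

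No paired analysis was possible because the replicates of each condition are merged in the lists. Leaving out replicates was not possible for the same reason, and since the lists hold no score, a minimum peak length stood in for a stricter peak threshold.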
